A study of Mus musculus with 12 samples.

Results

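Messenger RNA of 10 genes that mark the Krt8-high transitional state of the alveolar epithelium was followed in flow-sorted murine alveolar type II (ATII) cells. The genes were taken by symbol, with earlier results of these data known, and all 10 were among the 23238 gene symbols counted in every library. They are the simple-epithelium keratins Krt7, Krt8, Krt18 and Krt19, the tight junction gene Cldn4, the p53 target Sfn, the lectin gene Lgals3, the epidermal growth factor (EGF) receptor ligand genes Areg and Hbegf, and the integrin subunit gene Itgb6.

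RNA came from 12 mice, 3 in each of 4 groups, with 1 library per mouse. Control mice received phosphate-buffered saline (PBS) into the trachea (Con) or bleomycin, a DNA-breaking drug that injures the lung epithelium, at 4 mg/kg by the same route (BLM). Mice with p300 deleted in ATII cells likewise received PBS (KO) or bleomycin (KOBLM). The deletion used floxed p300 alleles, with loxP sites around exon 9, and CreERT2, an enzyme that tamoxifen activates, under the Spc (surfactant protein C) promoter, so that only cells using that promoter lose the gene. Control mice carry the floxed alleles in the study's main text. Its methods for sorting cells for RNA sequencing instead name a mouse strain, with no mention of floxed alleles, and an age of 8 to 10 weeks. The sample labels title the control mice WT, and which account holds here is not settled. Tamoxifen at 10 mg/kg was given at 8 weeks of age, before bleomycin, in the protocol that all samples share. For ATII cells sorted the same way and used in quantitative PCR, the study describes floxed mice given either vehicle or tamoxifen, and the labels do not say which the control mice here received. Cells were sorted as CD74-positive and EpCAM-positive. The day of harvest after bleomycin is not given in the sources used here.

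When the alveolus is injured, ATII cells, which make surfactant, divide and turn into the flat alveolar type I (ATI) cells that exchange gas. On the way they pass through an intermediate state with high Krt8, in which keratin filaments, junction proteins, p53 targets, EGF receptor ligands and the integrin that activates transforming growth factor beta (TGF-β) are known to be induced. Cells held in this state are a known feature of bleomycin-injured mouse lung and of fibrotic human lung. p300 is a histone acetyltransferase and transcriptional coactivator.

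Libraries held 7005005 to 11153154 counts (median 9186234), at which the detection floor of 3 counts equals 0.269 to 0.428 CPM, the count scaled to the library's total. This floor covers counting error only. The reads lie near the 3′ end of each transcript, so CPM values were compared between libraries and not between genes. Ep300, the gene of p300, was at 112 ± 52.7 CPM in Con, 84.0 ± 38.5 in BLM, 134 ± 27.1 in the libraries labelled KO and 107 ± 58.3 in those labelled KOBLM (SD, n = 3 each). It was thus not lower in the labelled knockouts, but the floxed exon lies far from the 3′ end that the kit reads, so this count does not check the genotype. The study measured the deletion in ATII cells by quantitative PCR, which was not analysed here, and KO and KOBLM name the libraries as labelled. BLM 3 stood apart. It had the fewest genes with a count (6847, against up to 13838). Genes with a count were also few in KO 3 (8790), KOBLM 2 (9018) and Con 3 (10246). Krt7 and Hbegf lacked counts only in these libraries and in BLM 3. The rank correlation of BLM 3 across genes with the other BLM libraries was 0.593 and 0.598, against 0.777 to 0.909 for all other pairs within a group. A list of 12 pluripotency markers summed to 2585 CPM in BLM 3 and to no more than 18 CPM in any other library. Values that leaving out BLM 3 moved most are therefore given with and without it.

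The sorted cells were checked against cell type markers. ATII markers were present in every group, although Lpcat1 was at 0 in KOBLM and only 6 of the 11 had a count in KOBLM 2. They held only 184 to 2169 CPM in sum. Sftpc, the surfactant gene that defines the type, ranged from 5 counts in KOBLM 3 to 5720 in Con 2. The 14 macrophage markers summed to 7117 to 36323 CPM in 11 libraries and to 991 CPM in BLM 3. Markers of both cell types were thus present in every library, and in bulk samples fewer cells of a type and less RNA per cell cannot be told apart.

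Effects were tested with edgeR's quasi-likelihood test in a single model of the 4 groups over 13054 genes that passed a filter on low counts. Of the 10 genes, 9 passed it and Krt18 did not. The study's threshold was used, under which a gene passes when it differs more than 1.5-fold with a p under 0.05 before adjustment. At a Benjamini-Hochberg adjusted p under 0.05, edgeR called 0 genes in every comparison, so the changes named here passed that test at the unadjusted level only. Of the 10 genes, only Krt19 got below that level with DESeq2 or without the filter, as given with its values. Adjusted values from DESeq2 or without the filter are not given here for genes of the wider lists. Between BLM and Con, 2 of the 9 genes passed, Cldn4 and Krt19, where 4.27% of all tested genes did (558 genes, 286 higher and 272 lower in BLM). Cldn4 had counts in BLM alone and passed the filter on low counts only through that group, so its call and its place in this count follow in part from the filter, here and in the next comparison. Between KOBLM and BLM, a comparison that shares the BLM libraries with the first, Cldn4 and Krt19 passed again, each in the opposite direction, where 3.16% of all tested genes did (413 genes). The 3 libraries of each group did not overlap for 4 of the 10 genes between BLM and Con (Krt8, Krt18, Krt19 and Cldn4), against 14.6% of 15449 genes. The same 4 of 10 did not overlap between KOBLM and BLM, against 9.32% of 15651 genes. Counts of overlap cover genes with more than 3 counts in some library of either group. Krt18 and Cldn4 met this only through BLM, so their place in both counts follows in part from that filter.

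**Figure D1:**
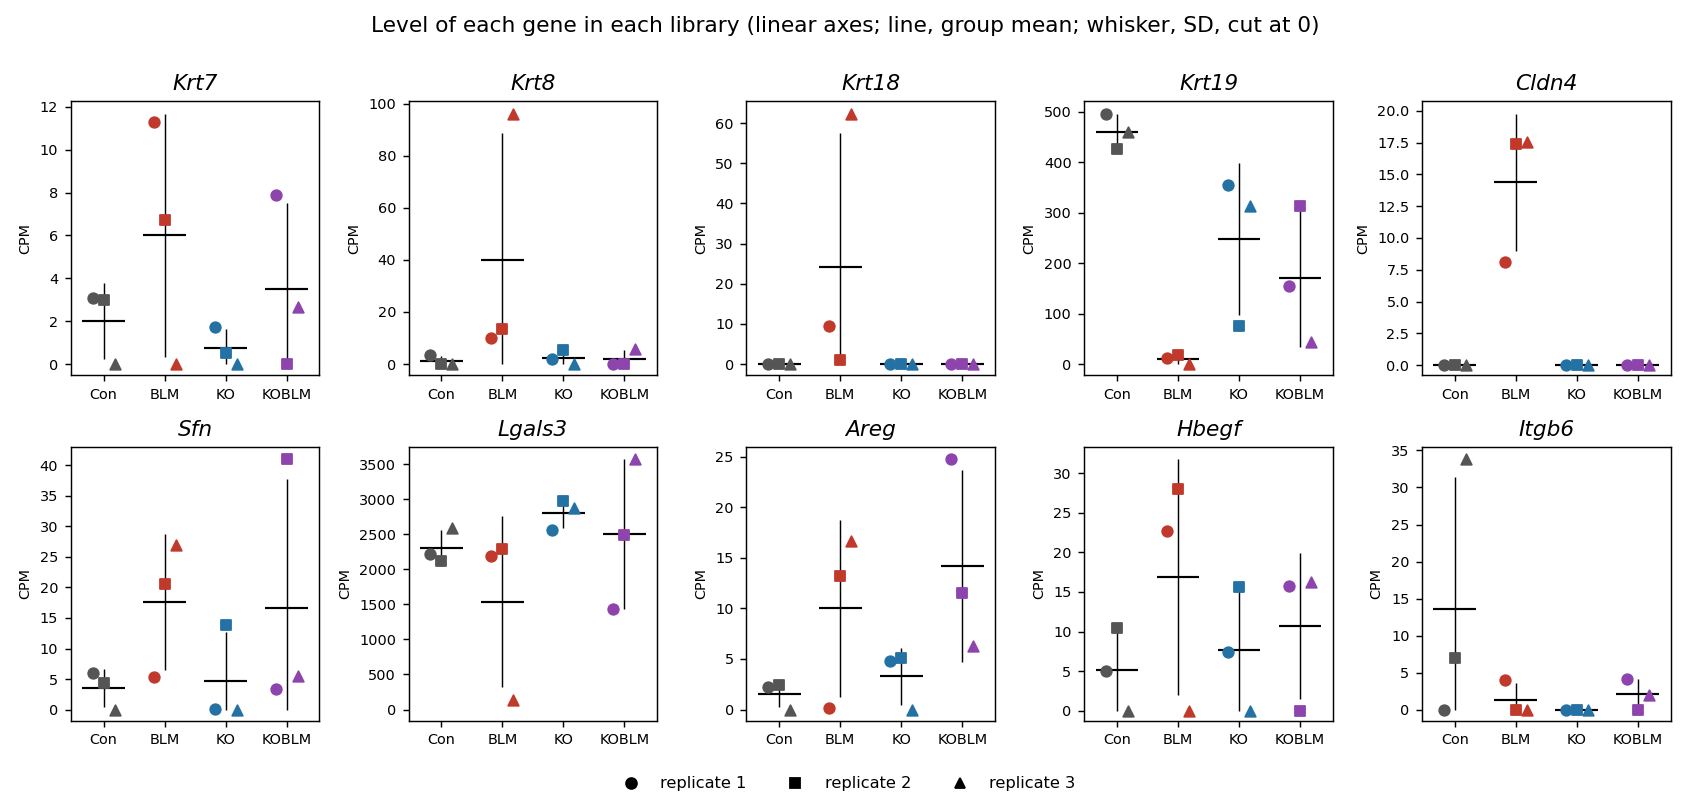
Level of each of the 10 genes in each of the 12 libraries, in CPM on linear axes that differ between panels. Symbols give the replicate number, horizontal lines the group mean and whiskers the SD, cut at 0. Krt8, Krt18 and Cldn4 are highest in the 3 BLM libraries, Krt19 is lowest in them, and BLM 3 (triangle) sets most of the Krt8 and Krt18 means.

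Krt8 and Krt18, the type II and type I keratin that pair into the filaments of simple epithelia, were higher in the bleomycin-treated controls than in any other group. Krt8 was at 9.99, 13.6 and 96.3 CPM in BLM 1, 2 and 3, from 70, 103 and 1074 counts. In Con it was at 3.34, 0 and 0 CPM, in KO at 1.82, 5.49 and 0.0925 CPM, and in KOBLM at 0, 0 and 5.76 CPM. Each BLM library thus lay above each of the other 9 libraries, and the highest of those 9 was KOBLM 3. Group means were 40.0 ± 48.8 CPM in BLM and 1.11 ± 1.93 in Con (SD, n = 3 each), a ratio of 35.9 that fell to 10.6 without BLM 3. The fitted log2 fold change was 5.0 (standard error 3.03, edgeR p = 0.120, adjusted p = 1.0), and the two-sided exact permutation p was 0.1, the smallest that 3 against 3 can give. KOBLM, at 1.92 ± 3.33 CPM (SD, n = 3), lay 20.8-fold below BLM, or 6.14-fold without BLM 3, with a fitted change of -4.02 on the log2 scale (standard error 2.89, exact permutation p = 0.1, edgeR p = 0.185, adjusted p = 1.0). Neither difference in Krt8 passed edgeR's threshold with all libraries. Each passed it in 1 of 6 fits with a library left out, without Con 1 and without KOBLM 3, which hold the only Krt8 counts of their groups, and so did the interaction without either. DESeq2 placed the difference between BLM and Con past the unadjusted threshold (log2 fold change 5.22, standard error 2.41, adjusted p = 0.558).

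Krt18 was detected above the floor in the BLM libraries alone. It was at 9.42, 0.923 and 62.4 CPM in BLM 1, 2 and 3, from 66, 7 and 696 counts. Outside BLM it had 1 count, in Con 2, in 9 libraries. Against the floor, BLM exceeded Con at least 72.4-fold and KOBLM at least 71.1-fold, and these bounds were 15.4 and 15.2 without BLM 3 (exact permutation p = 0.1 in each comparison). With the filter on low counts removed, edgeR placed Krt18 past the unadjusted threshold in both comparisons. Keratins are a multigene family with pseudogene copies, and how reads that match more than one copy were counted is not given in the sources used here, so the counts of single keratins carry that uncertainty.

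Krt8 and Krt18 are neighbours on chromosome 15 of GRCm38. Krt8 lies on the minus strand from 102004482 down to 101996698 and Krt18 on the plus strand from 102028180 to 102032027, head to head with 23697 nt between them. The stretches directly before their starts are shown because both genes were highest in the same libraries, Krt8 from chr15:102004483-102004592 (minus strand) and Krt18 from chr15:102027966-102028179 (plus strand), from RefSeq on GRCm38.p6. Both are printed 5′ to 3′ up to the base before the start.
Krt8: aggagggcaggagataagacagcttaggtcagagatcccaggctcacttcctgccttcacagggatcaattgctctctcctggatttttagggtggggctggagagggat
Krt18: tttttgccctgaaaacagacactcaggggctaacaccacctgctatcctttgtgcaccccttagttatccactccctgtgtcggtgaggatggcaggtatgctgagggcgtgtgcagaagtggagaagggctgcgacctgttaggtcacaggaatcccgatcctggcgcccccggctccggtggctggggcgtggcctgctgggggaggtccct
No letters are in capitals because none of the motifs searched in the 250 bases before each RefSeq start matched here. Of those windows 110 bases are printed for Krt8 and 214 for Krt18, because the rest lies past the starts given above. The motifs were AP-1 (TGANTCA), C/EBP (TTGCNNAA), TEAD (GGAATG) and a TATA box (TATAAA), on both strands, which 6.87%, 9.55%, 12.6% and 13% of 27025 promoters hold. Such a search describes the letters in the window and says nothing about binding.

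Krt19, a type I keratin of simple and ductal epithelia, had the opposite pattern, and the smallest edgeR p of the 9 genes tested in both of these comparisons. It lies on chromosome 11, minus strand, from 100140810 to 100148665. It was at 497, 427 and 459 CPM in Con and at 11.4, 17.5 and 0 CPM in BLM 1, 2 and 3. In KO it was at 355, 76.1 and 314 CPM and in KOBLM at 154, 314 and 43.5 CPM. All 9 libraries outside BLM lay above all 3 BLM libraries. Krt19 fell by 5.42 on the log2 scale between Con and BLM (standard error 1.39, exact permutation p = 0.1, edgeR p = 0.00153, adjusted p = 0.995), from 461 ± 34.8 to 9.66 ± 8.90 CPM (SD, n = 3 each). This was 47.7-fold, 31.8-fold without BLM 3 and 80.7-fold without BLM 2. In KOBLM it was 4.05 higher than in BLM on the log2 scale (standard error 1.30, exact permutation p = 0.1, edgeR p = 0.00747, adjusted p = 1.0), at 170 ± 136 CPM (SD, n = 3). The ratio of these means was 17.7, or 11.8 without BLM 3.

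Leaving out any single library kept Krt19 past the unadjusted threshold in both comparisons (6 of 6 fits each). Without BLM 3 its edgeR p was 3.31e-05 (adjusted p = 0.0845) between BLM and Con and 0.000411 (adjusted p = 0.708) between KOBLM and BLM. Without the filter on low counts, edgeR gave Krt19 an adjusted p of 0.0248 between BLM and Con and 0.205 between KOBLM and BLM. DESeq2, run as an alternative on the same genes, gave Krt19 an adjusted p of 0.000457 between BLM and Con and 0.0492 between KOBLM and BLM, and called 114 and 78 genes in all at an adjusted p under 0.05. In the KO libraries Krt19 was 1.86-fold below Con, all 3 KO libraries lying below all 3 Con libraries (exact permutation p = 0.1). That difference did not pass edgeR's threshold (log2 fold change -0.84, standard error 1.16, adjusted p = 1.0). The effect of bleomycin on Krt19 differed between the genotypes at the unadjusted level, by 4.89 on the log2 scale (standard error 1.71, edgeR's interaction test, adjusted p = 1.0). The fitted changes behind it were -5.42 in controls and -0.53 in knockouts. Of the 8 genes with an interaction estimate, Krt19 alone passed the threshold, against 2.82% of all tested genes (368 genes).

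Krt7, another type II keratin of simple epithelia (chromosome 15, plus strand, 101411043 to 101430313), differed by less than the spread between libraries. It was at 3.08, 2.99 and 0 CPM in Con, 11.3, 6.73 and 0 in BLM, 1.72, 0.549 and 0 in KO, and 7.90, 0 and 2.66 in KOBLM. The BLM mean of 6.0 ± 5.67 CPM stood beside 2.02 ± 1.75 in Con (SD, n = 3 each, log2 fold change 1.67, standard error 2.98, exact permutation p = 0.4). BLM 3, which held the most Krt8 and Krt18, had no Krt7 count. Without BLM 3, BLM did not overlap Con and its mean was 4.45-fold higher. Con 3, which also had few genes with a count and no Krt7 count, stayed in that comparison and lowered the Con mean.

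Cldn4, which encodes the tight junction protein claudin-4 in a single exon (chromosome 5, minus strand, 134945119 to 134946934), was detected in BLM and in no other group at this depth, where 0 counts allow up to the floor of 3. It was at 8.14, 17.4 and 17.6 CPM in BLM 1, 2 and 3, from 57, 132 and 196 counts, and had 0 counts in all 9 other libraries. Here BLM 3 was close to BLM 2. Against the floor, BLM exceeded Con at least 42.9-fold (exact permutation p = 0.1, edgeR p = 0.0266, adjusted p = 0.995) and KOBLM at least 42.2-fold (exact permutation p = 0.1, edgeR p = 0.0275, adjusted p = 1.0). Without BLM 3 the bounds were 38.1 and 37.5. With 1 library left out, Cldn4 stayed past the threshold in 2 of 6 fits of each comparison, those without BLM 1 or BLM 3, and the p ran up to 0.0672 and 0.0676 without Con 1, Con 2, Con 3 or BLM 2 and without BLM 2 or any KOBLM library. With Con, KO and KOBLM at 0, KO against Con, KOBLM against KO and the interaction had no estimate.

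The 250 bases before the start of Cldn4 (chr5:134946935-134947184 of GRCm38.p6, minus strand, from RefSeq) are shown because it was the single gene of the 8 with a promoter entry whose window held the AP-1 motif TGANTCA. Capitals mark its 2 matches, which begin 240 and 158 bases before the start.
Cldn4: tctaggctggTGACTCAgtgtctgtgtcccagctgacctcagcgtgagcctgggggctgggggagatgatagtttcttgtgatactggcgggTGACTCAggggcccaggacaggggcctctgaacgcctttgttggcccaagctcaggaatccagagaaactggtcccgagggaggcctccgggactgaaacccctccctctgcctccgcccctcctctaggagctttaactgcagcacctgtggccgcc
The same motif is in 6.87% of all promoters searched. Areg, with a TATAAA match, was the only other gene with a match to any of the 4 motifs.

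**Figure D2:**
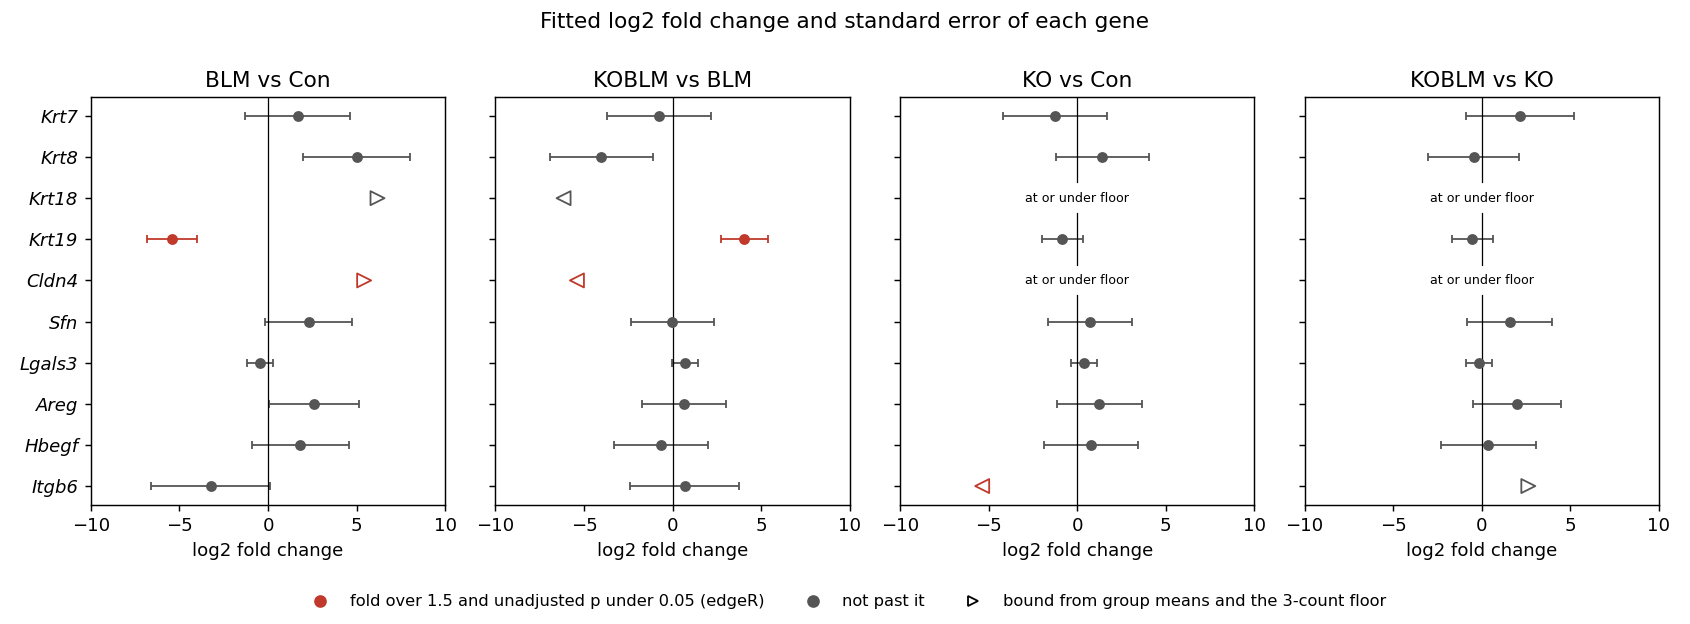
Fitted log2 fold change of each gene in the 4 comparisons, with bars of 1 standard error (edgeR). Open triangles are lower bounds from the group means and the 3-count floor, for genes with a group at or under the floor, and red marks genes past the threshold (over 1.5-fold, unadjusted p under 0.05). Krt19 and Cldn4 are red in the first 2 panels, in opposite directions, and Krt18, in grey, was not tested because it failed the filter on low counts.

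Sfn, which encodes the p53-induced cell cycle inhibitor 14-3-3σ in a single exon (chromosome 4, minus strand, 133600556 to 133602168), was on average higher after bleomycin in both genotypes but passed in neither. Con held 6.02, 4.38 and 0 CPM and BLM 5.28, 20.6 and 26.9 CPM (log2 fold change 2.29, standard error 2.45, exact permutation p = 0.2). KO held 0.101, 13.9 and 0 CPM and KOBLM 3.35, 41.0 and 5.43 CPM (log2 fold change 1.57, standard error 2.40, exact permutation p = 0.5). The groups overlapped in each case. BLM and KOBLM had like means, 17.6 ± 11.1 and 16.6 ± 21.2 CPM (SD, n = 3 each), with a standard error of 2.34 around a log2 difference of -0.0076, too wide to call them alike. Without BLM 3 the mean of BLM was 3.73-fold that of Con and still overlapped it.

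Lgals3, which encodes the lectin galectin-3, a protein of injured epithelium and of macrophages (chromosome 14, plus strand, 47367751 to 47386160), was high in 11 of the 12 libraries. It was at 2214, 2114 and 2590 CPM in Con, 2188, 2295 and 131 in BLM, 2563, 2972 and 2870 in KO, and 1437, 2491 and 3579 in KOBLM. The BLM mean was 1.5-fold below that of Con with BLM 3 and 1.03-fold without it. BLM 3 is also the library in which the macrophage markers were lowest, at 991 CPM, and the part of those cells in the Lgals3 count was not tested. Lgals3 passed in none of the comparisons (edgeR p from 0.372 to 0.824).

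Neither EGF receptor ligand passed the threshold in any comparison. Areg encodes amphiregulin (chromosome 5, plus strand, 91139599 to 91148432) and was at 2.27, 2.46 and 0 CPM in Con, 0.143, 13.2 and 16.7 in BLM, 4.76, 5.08 and 0 in KO, and 24.8, 11.6 and 6.32 in KOBLM. The 3 KOBLM libraries lay above the 3 KO libraries, 4.33-fold in the means (exact permutation p = 0.1), although edgeR did not call it (log2 fold change 1.99, standard error 2.46, p = 0.431). It was 1 of 8 genes with groups that did not overlap between KOBLM and KO, against 6.02% of 15046 genes. In BLM the libraries were split, with 1 count in BLM 1 and 100 and 186 counts in BLM 2 and BLM 3 (log2 fold change over Con 2.59, standard error 2.51, exact permutation p = 0.3). The mean of BLM was 6.34-fold that of Con, or 4.23-fold without BLM 3, with overlap in both cases.

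Hbegf encodes heparin-binding EGF-like growth factor and lies on chromosome 18. In each group at least 1 library had 0 counts. It was at 5.08, 10.5 and 0 CPM in Con, 22.7, 28.0 and 0 in BLM, 7.40, 15.7 and 0 in KO, and 15.8, 0 and 16.3 in KOBLM. The zero of the BLM group was BLM 3. Without that library BLM did not overlap Con and lay 4.88-fold above it, and 2.37-fold above KOBLM, again without overlap. Con 3 and KOBLM 2, which also had few genes with a count and no Hbegf count, stayed in these comparisons and lowered the means of their groups. With all libraries the log2 fold change was 1.81 (standard error 2.74, exact permutation p = 0.4).

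Itgb6, the β subunit of the integrin αvβ6 that frees TGF-β from its latent complex (chromosome 2, minus strand, 60598292 to 60722643), was the gene detected in the fewest libraries after Krt18 and Cldn4, with counts above the floor in 5 of 12. It was at 0, 6.95 and 33.8 CPM in Con, 4.00, 0 and 0 in BLM, 4.15, 0 and 2.0 in KOBLM, and had no count in KO. Between BLM and Con the log2 fold change was -3.23 (standard error 3.35, exact permutation p = 0.4). KO was at least 41.0-fold lower than Con (edgeR p = 0.0392, adjusted p = 1.0, exact permutation p = 0.4), yet Con 1 was at 0 as well, so the groups overlapped. This made Itgb6 the 1 gene past the threshold of the 8 with an estimate between KO and Con, against 1.44% of all tested genes (188 genes). The call held in 1 of 6 fits with a library left out, the p running up to 0.0830, and was lost without Con 2, Con 3 or any KO library. Between KOBLM and KO, 0 of 8 genes passed at an unadjusted p under 0.05 in edgeR, against 1.69% of all tested genes (221 genes). Nor did any at an adjusted p under 0.05 in DESeq2, which called 57 genes.

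Ordered by group mean, BLM was highest for 6 of the 10 genes (Krt7, Krt8, Krt18, Cldn4, Sfn and Hbegf), KOBLM for Areg, KO for Lgals3, and Con for Krt19 and Itgb6. Neighbouring groups in this order mostly overlapped. Between KO and Con only Krt19 had groups that did not overlap (1 of 8 genes, against 8.72% of 14823 genes), and between KOBLM and KO only Areg did. The median log2 fold change between BLM and Con was 1.81 over the 9 genes tested, beside -0.08 over all tested genes. It was -0.0076 between KOBLM and BLM, beside 0.10 over all genes. The genes did not move as a block, since in the first comparison 6 of the 9 fitted values were positive and 3 negative, and in the second 4 and 5.

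Markers of other cell types moved with the same groups. The 5 fibroblast markers summed to 901 to 1390 CPM in BLM, above the 32.5 to 587 CPM of the other 9 libraries, although Lum was at 0 in Con, BLM and KO. Only 2 of the 5 had a count in BLM 3. Of 4 tested between BLM and Con, with a median log2 fold change of 1.89, only Col1a2 passed the threshold (2.46, edgeR adjusted p = 0.995). The 3 club cell markers, which belong to a secretory airway cell, summed to 217 to 246 CPM in BLM and to 16.5 to 128 CPM elsewhere. Only Scgb1a1 of these passed the threshold between BLM and Con (log2 fold change 1.86, edgeR adjusted p = 0.995). The median over the 3 was -0.39, and only 1 of them had a count in BLM 3, so the club cell markers did not rise as a list. Krt8, Krt18 and Cldn4 were thus highest in the libraries in which the sums of the fibroblast and club cell lists were highest. The part of those cells in the counts was not tested.

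The 14 macrophage markers did not move as 1 list. Between BLM and Con, 3 were higher (C1qa, C1qb and C1qc, the complement C1q chains, with log2 fold changes of 5.92, 5.53 and 6.69) and 2 lower (Itgax and Mrc1, at -2.20 and -1.65), each with an edgeR adjusted p of 0.995. Itgax, an integrin gene of alveolar macrophages, had the directions of Krt19, at 1.85 between KOBLM and BLM and 2.07 in the interaction, past the unadjusted threshold each time. The 3 C1q genes also passed in the interaction, from -6.66 to -5.96. The part of macrophages in the counts of the 10 genes was not tested.

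The summed ATII and ciliated cell markers were lower in BLM than in Con, as Krt19 was, though few of their genes passed the threshold. Of 10 ATII markers tested, 3 fell (Sftpc, Sftpa1 and Cxcl15), and of 4 ciliated cell markers only Tppp3 could be tested, and it fell. ATII markers summed to 637 to 2169 CPM in Con and 450 to 576 in BLM, ciliated cell markers to 161 to 362 CPM in Con and 31.2 to 76.5 in BLM. In KO and KOBLM, where Krt19 was between those groups, ciliated cell markers ran from 10.0 to 227 CPM and ATII markers from 184 to 752 CPM. The defining ciliated gene Foxj1 was at 0 in Con, KO and KOBLM. Mesothelial markers, which share keratins with this state, stayed at or under 16.0 CPM in each library, with Wt1 at 0 in all groups. The 10 ATI markers summed to 562 to 703 CPM in Con and 596 to 1155 in BLM, and to 124 to 517 in the KO and 253 to 1046 in the KOBLM libraries. In none of these lists was the part in the keratin counts tested.

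**Figure D3:**
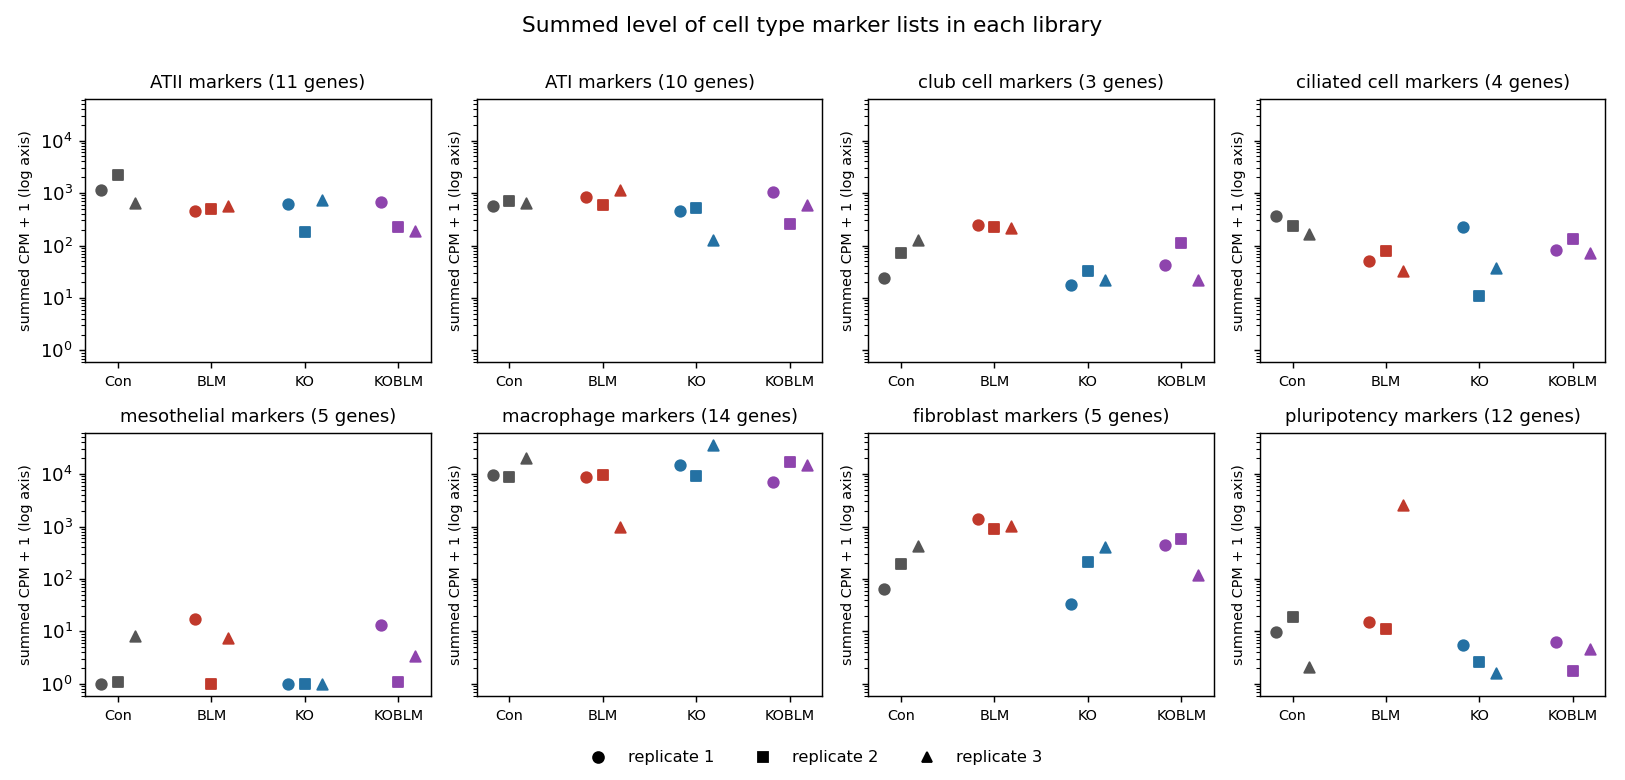
Summed CPM plus 1 of 8 marker lists in each of the 12 libraries, on log axes. Symbols give the replicate number. Fibroblast and club cell markers are highest in the 3 BLM libraries, and BLM 3 (triangle) stands apart in macrophage and pluripotency markers.

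A wider list of 22 other genes of the transitional state was counted in the same fits, 21 of which passed the filter. Between BLM and Con, 5 were higher (Sprr1a, S100a6, Ier3, Fn1 and Cdkn1a) and 2 lower (Gdf15 and Tagln2), against 4.27% of all tested genes. The median log2 fold change was 0.90, beside -0.08 over all tested genes. Sprr1a, a cornified envelope gene induced in stressed epithelia, had the same pattern as Cldn4. It was at 27.0, 15.2 and 48.1 CPM in BLM and at 0 in the other 9 libraries, which is at least 89.9-fold above Con (exact permutation p = 0.1, edgeR p = 0.0121, adjusted p = 0.995) and at least 88.3-fold above KOBLM (exact permutation p = 0.1, edgeR p = 0.0125, adjusted p = 1.0). Both calls held in 6 of 6 fits with a library left out. Like Cldn4, however, Sprr1a had counts in BLM alone and passed the filter on low counts only through that group. Its calls and its place in the counts of this list therefore follow in part from the filter.

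S100a6, a calcium-binding protein gene, rose by 3.34 on the log2 scale between Con and BLM (standard error 0.97, exact permutation p = 0.1, edgeR p = 0.00376, adjusted p = 0.995). It was at 183, 114 and 257 CPM in Con and at 2923, 1953 and 272 in BLM. Ier3, an immediate early stress response gene, rose by 2.73 (standard error 1.05, exact permutation p = 0.1, edgeR p = 0.0202, adjusted p = 0.995), from 143, 140 and 141 CPM to 1774, 675 and 198 CPM. In both genes BLM 3 was the lowest BLM library, the reverse of Krt8. The Ier3 call was lost without BLM 1 or Con 3. Gdf15, a stress-induced cytokine gene, fell by 2.02 (standard error 0.66, exact permutation p = 0.1, edgeR p = 0.00814, adjusted p = 0.995), from 301, 359 and 437 CPM in Con to 69.7, 152 and 24.5 CPM in BLM.

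Gdf15 was 2.18 higher on the log2 scale in KOBLM than in BLM (standard error 0.66, exact permutation p = 0.1, edgeR p = 0.00515, adjusted p = 1.0), at 390, 366 and 381 CPM. With Sprr1a it was 1 of 2 listed genes past the threshold there, against 3.16% of all tested genes. Cdkn1a, the p53-induced cell cycle inhibitor p21, was higher after bleomycin in each genotype. The log2 fold change was 1.19 between BLM and Con (standard error 0.54, exact permutation p = 0.3, edgeR p = 0.0462, adjusted p = 0.995), a call that held in 1 of 6 fits with a library left out, the one without BLM 3. Between KOBLM and KO it was 1.55 (exact permutation p = 0.1, edgeR p = 0.0132, adjusted p = 1.0), lost without KO 3 alone. Cdkn1a did not differ past the threshold between KOBLM and BLM, at 836 ± 284 and 843 ± 442 CPM (SD, n = 3 each).

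Sox4, a transcription factor gene of epithelial progenitors, was at 25.9, 11.0 and 7.35 CPM in Con and at or under the floor in all 3 KO libraries, at least 44.6-fold lower (exact permutation p = 0.1, edgeR p = 0.0119, adjusted p = 1.0). It was the only 1 of the 21 genes past the threshold between KO and Con, against 1.44% of all tested genes. Between KOBLM and KO, 2 of the 21 passed, Cdkn1a and Sox4, against 1.69% of all tested genes. Both were higher in KOBLM, where Sox4 was at 62.9, 0 and 30.2 CPM and overlapped KO. The calls of Fn1 and Tagln2 between BLM and Con held in 2 of 6 fits each with a library left out, lost without Con 1, Con 2 or BLM 1 in both, and without BLM 2 for Fn1 and BLM 3 for Tagln2. Without BLM 3 the list gave 6 higher and 2 lower genes between BLM and Con, and without BLM 1 it gave 3 in all and without Con 1 4 in all.

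**Figure D4:**
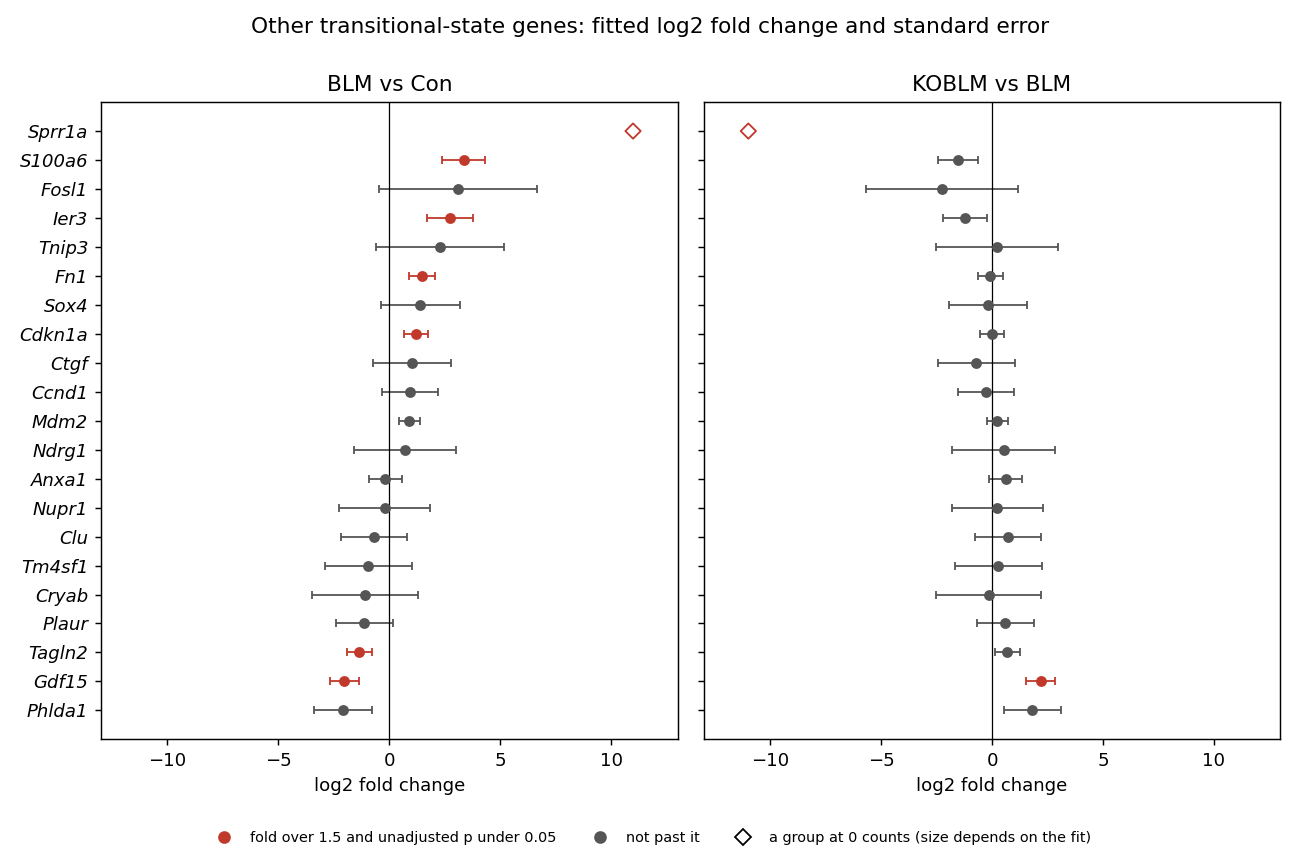
Fitted log2 fold change of 21 other transitional-state genes between BLM and Con (left) and KOBLM and BLM (right), with bars of 1 standard error. Red marks genes past the threshold (over 1.5-fold, unadjusted p under 0.05), and diamonds mark Sprr1a, whose size depends on the fit because a group is at 0. On the left 7 genes are red, 5 of them higher in BLM, and on the right Sprr1a and Gdf15.

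Few relatives of the 10 genes passed the threshold. Of 3 other keratins tested, Krt4, a keratin of stratified mucosa, fell between Con and BLM (at least 34.9-fold, exact permutation p = 0.1, edgeR p = 0.0161, adjusted p = 0.995), from 12.0, 25.3 and 0.754 CPM to 0 in each BLM library. It was also the 1 keratin past the threshold between KOBLM and KO, again lower after bleomycin, a call that held in 1 of 6 fits with a library left out. None of 11 tested genes of the EGF receptor pathway and none of 5 other claudins passed in that comparison. None of 8 other integrin and latent TGF-β genes passed there, and between KOBLM and BLM only Tgfb3 did, a call that held in 2 of 6 fits and was lost without BLM 3 or any KOBLM library. Of 10 other galectin and 14-3-3 genes, Ywhab and Ywhah, which encode 14-3-3 proteins, fell between Con and BLM, with log2 fold changes of -1.23 and -1.19 (edgeR p = 0.0167 and 0.0229, adjusted p = 0.995 and exact permutation p = 0.1 for each). The Ywhab call was lost without Con 3, and that of Ywhah held in 2 of 6 fits, lost without Con 2, Con 3, BLM 1 or BLM 2.

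The genes whose pattern over the 12 libraries was most like that of Krt8 were Psmb5, Coil, Nme4, Pdap1 and Sdhb, with Pearson coefficients of log2(CPM + 1) from 0.91 to 0.94 among 8938 genes at a mean of 10 CPM or more. All 5 were highest in BLM 3. Without BLM 3, over 11 libraries and 8733 genes, the first 5 were Sntb2, Uhrf1bp1l, Ccl12, Psmb5 and Rcan3 (0.89 to 0.96), so that only Psmb5 was common to both lists. Among the 10 genes, the coefficients with Krt8 were 0.81 for Krt18, 0.81 for Cldn4 and -0.91 for Krt19 over all libraries, and 0.55, 0.69 and -0.81 without BLM 3. These coefficients are descriptions, over libraries that share the split into groups.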

How the data were processed

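Lungs of each mouse were dissociated, ATII cells were sorted by flow cytometry, and RNA libraries were made with the QuantSeq 3′ kit and sequenced as single-end reads of 75 nt. As deposited by the authors, each value is a raw count of reads on a gene symbol and had not been normalized. The submitters' processing notes name Bowtie2, edgeR and mm10, without roles or versions. The counting program, the annotation and the handling of reads with several matches are not given in the sources used here. Because the kit reads transcript ends, gene length was not taken into account.

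Each deposited table had 23282 entries. Entries of the 35 symbols listed more than once (79 entries) were summed, which left 23238 symbols, 17480 of them with a count. The labels of the samples gave groups and replicate numbers. CPM is the count divided by the library total. Counts were filtered with filterByExpr of edgeR 4.0.16 (minimum count 10, minimum total 15), scaled by TMM (factors 0.836 to 1.25) and fitted with the quasi-likelihood model of the 4 groups (8 residual degrees of freedom, common dispersion 2.08). Tests were two-sided, and p-values were adjusted over all 13054 genes by the Benjamini-Hochberg method. Single CPM values were compared by exact permutation. Folds against groups without a library above 3 counts are lower bounds, taken against the mean of 3 counts per library. Alternatives were DESeq2 1.42.0, its size factors, library size alone, removal of Rn45s (2.04% to 21.6% of the counts), no filter, a replicate block, fits of 2 groups, other thresholds and leaving out each library. They were repeated for the wider gene lists after the data had been seen. The edgeR steps were tested on simulated data.

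The 10 genes and all gene lists were chosen with earlier results of these data known. Named genes are those 10, Ep300, up to 4 genes per list and comparison with the largest log2 fold change past the threshold, and the 5 genes most like Krt8. Fn1, Tagln2 and marker genes beyond this rule are named to complete a count. Positions are from GENCODE M21 on GRCm38 and promoters from RefSeq, which had an entry for 8 of the 10 genes. R 4.3.3, limma 3.58.1 and Python 3.11.15 were used. Mice are separate animals, and the p-values measure the spread between them.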

Additional observations from a re-analysis of the deposited data

Results flagged for a closer look

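The effect of bleomycin differed between knockouts and controls, by edgeR's interaction test at an unadjusted p under 0.05, for Krt19 among the 10 genes and for 4 genes of the related lists. The effect in knockouts minus that in controls was 4.89 for Krt19 on the log2 scale. It was 1.99 for Gdf15, -3.09 for S100a6, 6.40 for Sox4 and 1.48 for Ywhah. Every adjusted p was 1.0. With each library left out in turn, Krt19 passed in 12 of 12 fits, S100a6 in 7, Sox4 in 5, Gdf15 in 3 and Ywhah in 2. What underlies these differences was not tested.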

How the results depend on the processing

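Of 284 values of the 10 genes under another scaling, filter, model or tool, 272 kept their direction and side of the threshold, and of 300 values with a library left out, 257 did. For the calls of named genes of the wider lists, 217 of 289 values did, 72 missed the threshold and 0 turned direction. The number of the 10 genes past the threshold was 2, 2, 1, 0 and 1 for BLM against Con, KOBLM against BLM, KO against Con, KOBLM against KO and the interaction. At an adjusted p it was 0 throughout, and by fold change alone 8, 8, 7, 4 and 7. Most of all tested genes also passed by fold change alone in each of the 4 comparisons between groups. With only the 2 groups compared, the number of the 10 genes past the threshold was 0 for KO against Con. With library size alone or no filter it was 2 for the interaction. With a library left out it ran from 1 to 2, 2 to 3, 0 to 1, 0 to 1 and 1 to 3. Counts over all genes ran, with a library left out, from 292 to 767 around 558, 236 to 471 around 413, 88 to 446 around 188, 105 to 402 around 221 and 332 to 672 around 368, and with other fits from 380 to 947, 149 to 755, 100 to 374, 100 to 460 and 242 to 706. Library size alone moved the median log2 fold change of all genes between KO and Con from -0.09 to -0.21.

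No pairing by replicate number was seen. Same-numbered libraries had correlations of deviations from -0.114 to 0.0960 over 12 pairs, and 4 of 12 libraries correlated best with their own number. Deviations from the mean of 3 unlike libraries have little power, so this check could miss a shared batch. With the replicate block 1 gene passed between BLM and Con and 1 between KOBLM and BLM (Krt19, not Cldn4). The block reversed the log2 fold change of Krt7 (2.51), Areg (-0.14) and Hbegf (5.05) between KOBLM and BLM, of Sfn between KO and Con (-1.58), and of Sfn (0.35) and Hbegf (4.38) in the interaction. A fit of 2 groups gave 0.0052 for Sfn between KOBLM and BLM.

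With a library left out, these log2 fold changes turned direction. Between BLM and Con Lgals3 ran from -0.93 to 0.11. Between KOBLM and BLM Sfn ran from -1.81 to 0.54 and Itgb6 from -0.28 to 7.35. Between KO and Con Krt8 ran from -0.085 to 7.73, Sfn from -5.71 to 1.32 and Hbegf from -0.39 to 1.87. Between KOBLM and KO Krt8 ran from -7.72 to 1.06, Sfn from -0.23 to 8.02, Lgals3 from -0.58 to 0.11 and Hbegf from -0.21 to 1.54. In the interaction Krt7 ran from -0.84 to 1.81, Sfn from -2.52 to 5.76 and Lgals3 from -0.27 to 0.76. None of these was past the threshold with all libraries, Sfn passed between KOBLM and KO without KO 2 and the interaction of Itgb6 without Con 1, BLM 1 or KOBLM 2, and the cause was not tested. The low counts of most of the 10 genes limit what these libraries can show.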

Other observations

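Other marker lists also differed in level. Neutrophil markers summed to 104 to 3696 CPM in Con and 140 to 5696 in BLM, and to 326 to 791 in the KO and 1265 to 2121 in the KOBLM libraries, endothelial markers to 60.8 to 1262 CPM over all libraries, B cell markers to 0 to 61.0 CPM, T and innate lymphoid markers to 0.179 to 158 CPM, and basophil and mast cell markers to no more than 15.7 CPM. Basal cell markers, whose Krt5 and Trp63 mark the airway cells that also carry keratins, stayed at or under 5.77 CPM, and all 4 were at 0 in KOBLM. The sort markers Cd74 and Epcam summed to 463 to 2283 CPM, most of it Cd74 in each library. Epcam alone ran from 2.75 CPM in KO 2 and 2.99 in KOBLM 3, from 20 and 27 counts, to 329 CPM in BLM 3. It was also low in BLM 1 (9.56 CPM) and KOBLM 1 (10.8 CPM). What part this had in the keratin counts was not tested.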
